A study of Mus musculus with 12 samples.

Results

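The small leucine-rich proteoglycans (SLRPs) are secreted matrix proteins, and 10 of their genes are described here across 4 Hox genotypes of the embryonic mouse kidney. The genes Lum, Dcn, Kera, Epyc, Ogn, Omd, Aspn, Bgn, Fmod and Prelp were chosen by symbol from the 36186 genes of the count table, and all 10 were found there. They fall into a cluster of 4 on chromosome 10 (Dcn, Lum, Kera and Epyc), a cluster of 3 on chromosome 13 (Aspn, Omd and Ogn), and 3 genes elsewhere (Bgn on chromosome X, Fmod and Prelp on chromosome 1).

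The study asked what the Abdominal-B type Hox genes of paralog groups 9, 10 and 11 do together in kidney development, using mice with frameshift mutations in flanking Hox genes on a mixed background. RNA was sequenced from whole kidneys at E18.5, with 3 libraries for each of 4 genotypes. The groups are wild type, Hoxa9,10,11-/- with HoxC9,10,11+/- (written Hoxa-/- Hoxc+/- below), Hoxa9,10,11+/- with HoxC9,10,11-/- (Hoxa+/- Hoxc-/-), and Hoxa9,10,11-/- with HoxC9,10,11-/- (the double mutant). The labels give the double mutants as Hoxa11-/-. Where it introduces the RNA sequencing, the paper instead describes the sequenced double mutants as Hoxa11+/- in some and Hoxa11+/+ in others. By that description the 3 double mutant libraries mix genotypes at Hoxa11, and the labels do not say which library carries which alleles. The groups keep their labels here, and the Hoxa11-/- of the double mutant label is not relied on. Because the mutations are frameshifts, the mRNA level of a mutated Hox gene does not check a genotype.

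Total counts were 37190058, 42353534 and 39304131 in wild type libraries 30, 37 and 55. They were 28616878, 41185017 and 38337132 in Hoxa-/- Hoxc+/- libraries 20, 31 and 33, and 33106687, 47067926 and 46399598 in Hoxa+/- Hoxc-/- libraries AC38, AC110 and AC115. The double mutant libraries 24, 27 and 29 had 39352884, 40151347 and 36951252 counts. All 3 Hoxa+/- Hoxc-/- libraries carry the label run1646 and the other 9 the label run1008, so for that genotype the run and the mutations cannot be told apart. Library 20 stood apart from its group: its log2 CPM (counts scaled to library size) differed from those of its group mates with an SD over genes of 1.00, against 0.388 to 0.652 in the other 11 libraries. The sexes were also unequal. Xist, the X inactivation transcript of females, had at most 6 counts in the wild type libraries, in Hoxa-/- Hoxc+/- 20, in Hoxa+/- Hoxc-/- AC38 and AC115, and in double mutant 24, and from 2187 to 16418 counts in the remaining 5 libraries. Y-linked Ddx3y was at 54.2 to 93.6 CPM in the Xist-low libraries and at most 3 counts in the others.

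SLRPs share a core protein built of leucine-rich repeats that binds collagen fibrils, sets their spacing and width, and holds growth factors such as TGF-beta near the matrix. Members of class I (Dcn, Bgn and Aspn) and class II (Lum, Fmod, Kera, Omd and Prelp) differ in the sugar chains they carry: decorin and biglycan bear chondroitin or dermatan sulfate, lumican, fibromodulin, keratocan and osteomodulin can bear keratan sulfate, and asporin carries a run of aspartates in place of a chain. Class III holds Ogn and Epyc. In the kidney these proteins are made mainly by stromal fibroblasts, mesangial cells and vessel walls, and decorin and biglycan are known from work on renal fibrosis.

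The stretches just before the gene starts are shown for 4 members of the clusters, as neighbours of which Aspn and Ogn rose in the double mutant, Omd did not pass the test and Epyc was not tested. RefSeq windows of 250 bases (GRCm38, ending 1 base before the start in the direction of the gene) were found for 8 of the 10 members (all but Lum and Dcn). There were 9 windows in all, and 6 windows were free of exons. The Prelp window lies on the minus strand and the others on the plus strand. The windows of Aspn (chr13:49544193-49544442), Omd (chr13:49582212-49582461), Ogn (chr13:49607765-49608014) and Epyc (chr10:97643818-97644067) read as follows, with capitals marking motif matches.
Aspn: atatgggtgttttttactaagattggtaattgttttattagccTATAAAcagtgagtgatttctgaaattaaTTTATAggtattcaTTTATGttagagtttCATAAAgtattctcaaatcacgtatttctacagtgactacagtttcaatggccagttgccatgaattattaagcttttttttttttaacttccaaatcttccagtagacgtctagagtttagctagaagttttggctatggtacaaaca
Omd: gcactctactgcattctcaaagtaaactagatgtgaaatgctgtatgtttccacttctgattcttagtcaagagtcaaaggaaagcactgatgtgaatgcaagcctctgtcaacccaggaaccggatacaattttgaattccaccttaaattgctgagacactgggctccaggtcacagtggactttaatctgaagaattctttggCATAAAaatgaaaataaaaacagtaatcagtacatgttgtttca
Ogn: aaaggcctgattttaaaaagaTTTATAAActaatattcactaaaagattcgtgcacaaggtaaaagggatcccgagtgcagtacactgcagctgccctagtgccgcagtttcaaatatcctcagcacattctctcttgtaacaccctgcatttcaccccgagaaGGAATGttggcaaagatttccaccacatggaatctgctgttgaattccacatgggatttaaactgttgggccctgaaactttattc
Epyc: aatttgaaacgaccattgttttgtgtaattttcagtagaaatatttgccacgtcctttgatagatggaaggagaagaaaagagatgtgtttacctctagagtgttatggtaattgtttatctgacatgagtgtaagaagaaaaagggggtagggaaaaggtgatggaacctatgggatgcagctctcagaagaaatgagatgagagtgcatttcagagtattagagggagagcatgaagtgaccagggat
The letters searched on both strands were TATAAA for a TATA box, TTTATG or else TTTACG for posterior Hox proteins, TGAGTCA for AP-1 and CATTCC for TEAD proteins. Aspn held TATAAA on the plus strand 207 bases and on the minus strand 178 bases before the start, and TTTATG on the plus strand at 164 and on the minus strand at 149. In Omd, TTTATG stood on the minus strand 44 bases before the start. In Ogn, TATAAA stood on both strands at 227 and 229, where the matches overlap, and CATTCC on the minus strand at 86. The printed Epyc window held none of the motifs, and TTTACG and TGAGTCA were in none of the printed windows. Another Epyc window, which overlaps an exon and is not printed, held CATTCC on the plus strand 188 bases before its start. Of 32851 RefSeq promoter windows of this length, 12.4% held TATAAA, 10.8% TTTATG, 2.62% TTTACG, 4.46% TGAGTCA and 12.6% CATTCC. A match describes the letters and is not evidence that a protein binds there.

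Within wild type kidneys the 10 genes spanned a wide range of levels, compared here as CPM per kb of exon. Bgn was highest at 45.2 ± 2.43 (SD, n = 3), followed by Ogn at 23.5 ± 0.715, Dcn at 16.5 ± 1.35 and Aspn at 13.4 ± 1.88. Ogn, Dcn and Bgn did not overlap each other over the 3 libraries, whereas Dcn and Aspn overlapped. Lum at 6.01 ± 0.940, Fmod at 4.44 ± 0.633 and Prelp at 1.72 ± 0.943 came next, and Lum and Fmod overlapped. Omd at 0.259 ± 0.0919, Kera at 0.0111 ± 0.0109 and Epyc at 0 were close to silent. Among 15694 expressed genes with an exon length, wild type Bgn ranked 1023, Ogn 2324, Dcn 3409 and Lum 7500. In the double mutant the order at the top was Bgn at 80.4 ± 7.96, Ogn at 70.6 ± 8.29, Dcn at 70.0 ± 15.2 and Lum at 49.3 ± 13.1, and the ranges of Ogn, Dcn and Bgn now overlapped. Lum moved to rank 1032 of the 15694, close to the rank that Bgn held in wild type, and Dcn moved to 667.

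The cluster on chromosome 10 changed most. Lum, the gene of lumican, was at 16.9, 14.8 and 12.4 CPM in wild type 30, 37 and 55, 30.7, 34.8 and 28.9 in Hoxa-/- Hoxc+/- 20, 31 and 33, 26.3, 34.8 and 31.6 in Hoxa+/- Hoxc-/- AC38, AC110 and AC115, and 85.7, 149 and 127 in double mutants 24, 27 and 29. Wild type was lowest, both partial mutants lay above it without overlap and overlapped each other, and the double mutant lay above all other libraries. Dcn, the gene of decorin, in the same library order was at 105, 94.98 and 89.5 CPM in wild type, 144, 142 and 116 in Hoxa-/- Hoxc+/-, 113, 118 and 133 in Hoxa+/- Hoxc-/-, and 347, 511 and 368 in the double mutant. Here too both partial mutants overlapped each other, cleared wild type, and stayed below the double mutant.

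Keratocan and epiphycan, best known from the cornea and from growth plate cartilage, were nearly absent without the double mutation. Kera had 1, 0 and 2 counts in wild type, 6, 4 and 2 in Hoxa-/- Hoxc+/-, 0, 6 and 12 in Hoxa+/- Hoxc-/-, and 47, 61 and 67 in the double mutant, where it reached 1.23, 1.55 and 1.84 CPM. Epyc had 0 counts in each wild type library, 1, 0 and 0 in Hoxa-/- Hoxc+/-, 2, 4 and 0 in Hoxa+/- Hoxc-/-, and 10, 10 and 10 in the double mutant. For both genes the double mutant libraries lay above all 9 others. Over the summed counts (175 against 3), Kera was 62.2-fold higher in the double mutant than in wild type, with a 95% counting interval of 20.9 to 305. It was 4.62-fold higher (1.25 to 25.5) in Hoxa-/- Hoxc+/- and 5.56-fold higher (1.62 to 29.5) in Hoxa+/- Hoxc-/-. These intervals cover counting error only and not the spread between libraries, and Kera in Hoxa+/- Hoxc-/- overlapped wild type. Epyc was at least 10.7-fold higher in the double mutant than in wild type, against a floor of 3 counts over the group. All 4 genes of the chromosome 10 cluster were thus highest in the double mutant, 2 of them at levels that whole-kidney counts barely reach.

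In the cluster on chromosome 13, Ogn and Aspn were higher in the double mutant and Omd was not separated. Ogn, the gene of osteoglycin, was at 58.3, 60.8 and 61.9 CPM in wild type, 124, 70.9 and 65.9 in Hoxa-/- Hoxc+/-, 60.2, 62.3 and 79.9 in Hoxa+/- Hoxc-/-, and 192, 195 and 157 in the double mutant. Library 20 gave the high value among the partial mutants, Hoxa+/- Hoxc-/- overlapped wild type, and the double mutant lay above all others. Aspn, the gene of asporin, was at 28.7, 36.7 and 29.4 CPM in wild type, 41.7, 30.2 and 33.3 in Hoxa-/- Hoxc+/-, 25.5, 15.6 and 26.5 in Hoxa+/- Hoxc-/-, and 74.5, 89.2 and 57.5 in the double mutant. The Hoxa+/- Hoxc-/- libraries lay below wild type without overlap, Hoxa-/- Hoxc+/- overlapped wild type, and the double mutant was above both. Omd, the gene of osteomodulin of bone, ranged from 0.371 to 0.784 CPM in wild type, from 0.369 to 1.197 in Hoxa-/- Hoxc+/-, from 1.099 to 1.27 in Hoxa+/- Hoxc-/- and from 0.605 to 1.40 in the double mutant. Its double mutant range overlapped that of wild type.

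Among the genes outside the clusters, Prelp changed most and Bgn least between double mutant and wild type. Prelp codes for a basic protein that ties basement membranes to the underlying collagen. It was at 9.95, 5.51 and 3.24 CPM in wild type, 13.4, 15.4 and 13.9 in Hoxa-/- Hoxc+/-, 10.9, 8.94 and 13.1 in Hoxa+/- Hoxc-/-, and 34.2, 47.3 and 39.4 in the double mutant. Wild type was spread over a 3-fold range, Hoxa-/- Hoxc+/- cleared it, Hoxa+/- Hoxc-/- overlapped it, and the double mutant lay above all others. Fmod, the gene of fibromodulin, ranged from 12.8 to 16.9 CPM in wild type, 10.7 to 19.97 in Hoxa-/- Hoxc+/-, 15.9 to 19.8 in Hoxa+/- Hoxc-/- and 30.8 to 39.7 in the double mutant. Bgn, the gene of biglycan, ranged from 263 to 292 CPM, 285 to 367, 302 to 352 and 460.1 to 547 in the same order of groups. For both genes the double mutant cleared the other 9 libraries, and Bgn in Hoxa+/- Hoxc-/- also cleared wild type.

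**Figure D1:**
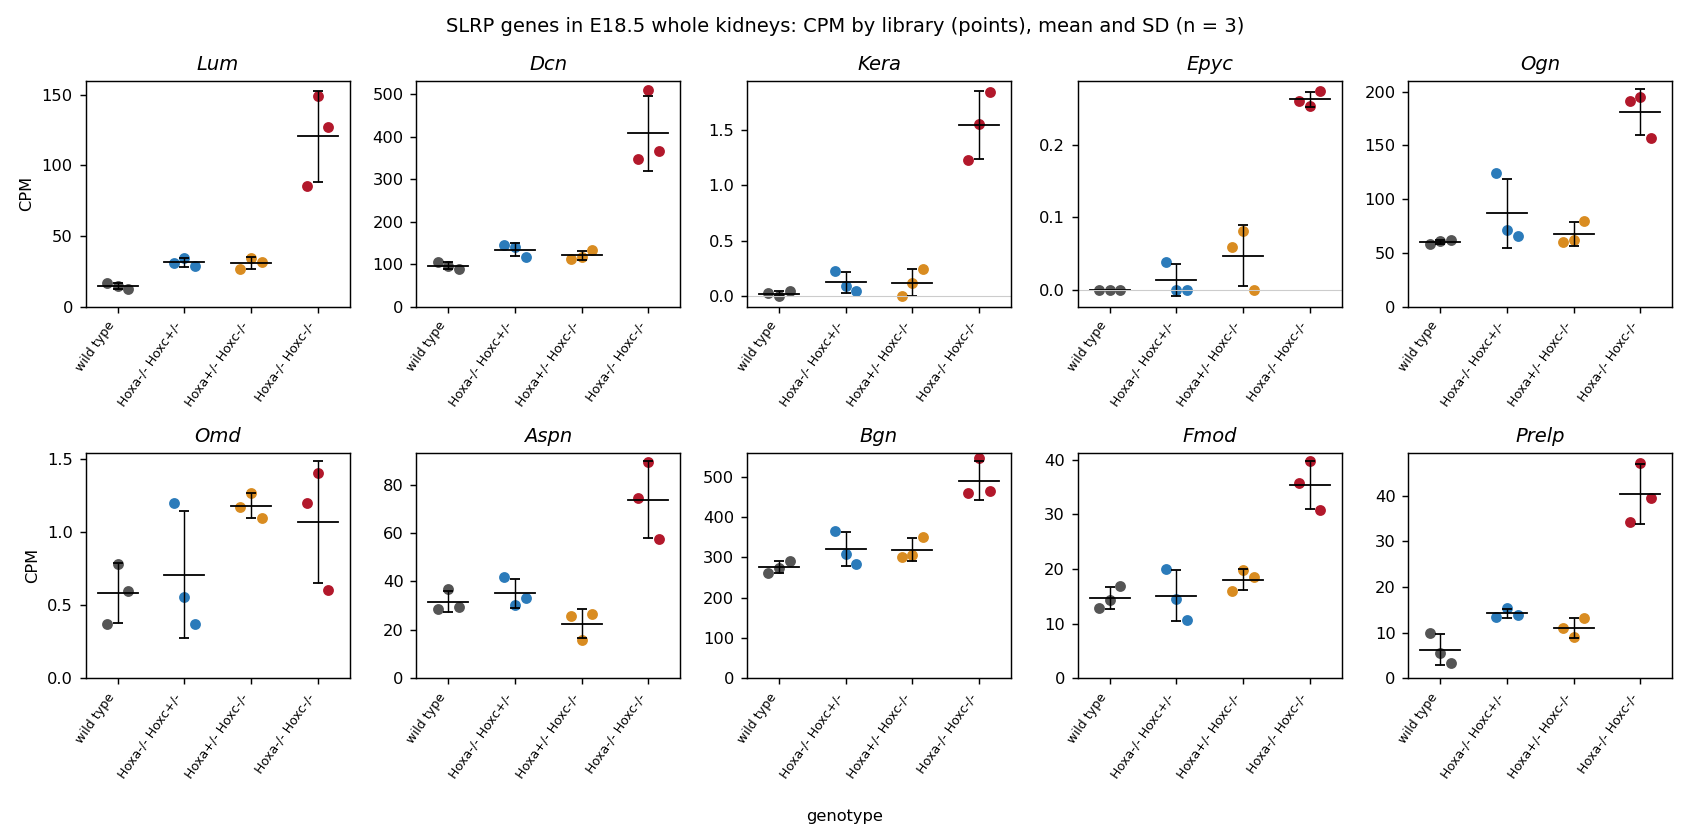
CPM of the 10 SLRP genes in each of the 12 libraries, by genotype (points), with the mean and SD of the 3 libraries of a group (bars). The double mutant points lie above all others for 9 of the 10 genes, and Omd is the exception.

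The comparison of the double mutant with wild type asks what loss of both Hox sets, as labelled, does to these genes within 1 sequencing run. Of the 10 members, 9 were testable by edgeR's quasi-likelihood test, 8 rose and 0 fell at an adjusted p under 0.05, and Omd did not pass. Over all 15839 genes tested, 6.31% rose and 7.40% fell in the same comparison. The double mutant libraries lay above those of wild type without overlap for 8 of the 9 tested members and for untested Epyc, and 17.3% of all tested genes were separated in that direction. Kera passed the low-count filter through the mutants alone, so its call is not independent of the direction of its change. Without it, 7 of 8 tested members rose.

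The sizes of the rises differed among members. Lum rose 8.20-fold (log2 fold change 3.04, standard error, SE, 0.22, adjusted p = 8.1e-04), which ranked 37 among the 15839 log2 fold changes, and Prelp rose 6.46-fold (2.69, SE 0.36, adjusted p = 0.00557), ranking 52. Dcn rose by 2.08 on the log2 scale (SE 0.16, adjusted p = 9.2e-04) and Ogn by 1.59 (SE 0.10, adjusted p = 4.3e-04), ranking 94 and 182. Below them came Fmod at 1.27 (0.14, adjusted p = 0.00307), Aspn at 1.22 (0.17, adjusted p = 0.00639) and Bgn at 0.83 (0.09, adjusted p = 0.00361), where the first number in each bracket is the SE. Each of these 7 genes was higher in 3 of 3 double mutant libraries than in any wild type library. Kera had a fitted log2 fold change of 5.79 (SE 0.56, adjusted p = 0.00202), again with 3 of 3 libraries above wild type. That fitted value rests on 3 wild type counts and ranged from 5.22 to 6.63 when 1 library was left out. Omd had 1.07 ± 0.415 CPM against 0.583 ± 0.207 (SD, n = 3 each), a log2 fold change of 0.87 with a SE of 0.41 and an adjusted p of 0.189.

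With Kera left out for its filter, the median log2 fold change was 2.56 over Lum and Dcn of the chromosome 10 cluster and 1.43 over the 8 remaining tested members. It was 1.22 over the 3 genes of the chromosome 13 cluster and 1.27 over Bgn, Fmod and Prelp. Over all tested genes the median was -0.01. Double mutant 24, the Xist-low library of its group, was above all 3 wild type libraries, also Xist-low, for each called gene other than Kera. With Xist as a covariate in a fit of all 12 libraries, the same genes passed the test. Kera was above wild type and passed as well, but for its filter this adds no support. In total, 999 genes rose and 1172 fell here (46.0% of the calls higher), and 742 rose and 1649 fell (31.03% higher) when libraries were scaled by their size alone. The total of 2171 depended on single libraries: it was 3386 without wild type 30, 535 without wild type 37, 633 without wild type 55, 793 without double mutant 24 and 1101 without double mutant 27. In whole kidneys, more cells of a type and more RNA per cell cannot be told apart.

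The comparison of Hoxa-/- Hoxc+/- with wild type asks how far 1 remaining Hoxc set holds these genes at their wild type level. Lum, Dcn, Ogn and Prelp were higher than in any wild type library in 3 of 3 mutant libraries. Kera had 12 against 3 counts in all, with 2 counts in the lowest mutant and in the highest wild type library. Lum was at 31.5 ± 3.02 CPM against 14.7 ± 2.30 (SD, n = 3 each), 2.14-fold, and Prelp at 14.2 ± 1.02 against 6.23 ± 3.41, 2.28-fold. None of the 8 testable members passed the test, and edgeR called 0.00% of 15789 genes higher and 0.00% lower. At an unadjusted p under 0.05 there were 360 genes, 3 of them members (Lum, Dcn and Prelp). DESeq2 called 18 genes, among them Lum. Of the tested members, 4 lay above wild type without overlap, against 3.58% of all genes tested. By edgeR the log2 fold change of Lum was 1.098 (SE 0.16, adjusted p = 0.580), and by DESeq2 it was 1.09 (adjusted p = 8.9e-06). Those of Prelp, Ogn and Dcn were 1.19, 0.53 and 0.47, with an adjusted p of 1.00 each, and the values of Omd, Aspn, Bgn and Fmod lay between 0.04 and 0.24. The value for Ogn rests largely on library 20, without which it was 0.18. Over the 8 tested members the median was 0.36, against 0.03 over all genes.

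The comparison of Hoxa+/- Hoxc-/- with wild type asks the converse, with the run left confounded as said above. Lum alone passed the test: it rose 2.10-fold, from 14.7 ± 2.30 to 30.9 ± 4.26 CPM (log2 fold change 1.08, SE 0.15, adjusted p = 0.0196), and was higher in 3 of 3 libraries. In this comparison 0.836% of 15902 genes rose and 1.53% fell. The call for Lum was lost when wild type 37, wild type 55, Hoxa+/- Hoxc-/- AC110 or AC115 was left out, with an adjusted p of 0.128, 0.0692, 0.0892 and 0.0756 in turn. Of the 8 tested members, 4 lay above wild type without overlap (Lum, Dcn, Omd and Bgn), against 11.4% of all genes tested. Dcn had a log2 fold change of 0.34 (SE 0.09, adjusted p = 0.107 by edgeR and 0.0338 by DESeq2). Omd was at 1.18 ± 0.0850 CPM, a log2 fold change of 1.02 that did not pass (SE 0.31, adjusted p = 0.131). Aspn, at 22.6 ± 6.04 against 31.6 ± 4.42 CPM, was the member with a negative value, a log2 fold change of -0.48 (SE 0.21, adjusted p = 0.242). The remaining values were 0.83 for Prelp, 0.31 for Fmod, 0.22 for Bgn and 0.17 for Ogn, and the median was 0.32 against 0.01 over all genes.

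The comparison of the double mutant with Hoxa-/- Hoxc+/- asks, by the labels, what the loss of the last Hoxc set adds. By the genotypes the paper describes, these groups differ in Hoxa11 as well, and the parts of Hoxa11 and Hoxc cannot be told apart. Apart from Omd, each member was higher in 3 of 3 double mutant libraries than in any Hoxa-/- Hoxc+/- library. Lum stood at 121 ± 32.1 against 31.5 ± 3.02 CPM and Dcn at 408 ± 88.9 against 134 ± 15.6. The fitted log2 fold changes were 3.68 for Kera, 1.96 for Lum, 1.62 for Dcn, 1.52 for Prelp, 1.25 for Fmod, 1.09 for Aspn, 1.08 for Ogn, 0.64 for Omd and 0.63 for Bgn. By edgeR none of the 15764 genes passed: 0.00% were called higher and 0.00% lower, the lowest adjusted p was 0.0783, and 1787 genes had an unadjusted p under 0.05, 8 of the 9 tested members among them. DESeq2 called 487 genes, among them Lum, Dcn, Ogn, Aspn, Bgn, Fmod and Prelp. It also called Kera and Epyc, which pass a filter on counts through the double mutant where they are high, so those calls add no support. Of the 8 tested members other than Kera, 7 lay above without overlap, against 9.95% of all genes tested. Without library 20, edgeR called 687 genes, among them the same 7 members besides Kera and Epyc. The value of Lum was then 1.94 (adjusted p = 0.0176) and that of Ogn 1.43 (adjusted p = 0.0106). The median over the 8 tested members other than Kera was 1.17, against -0.01 over all genes. The 3 comparisons with wild type share its libraries and are not independent of each other.

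**Figure D2:**
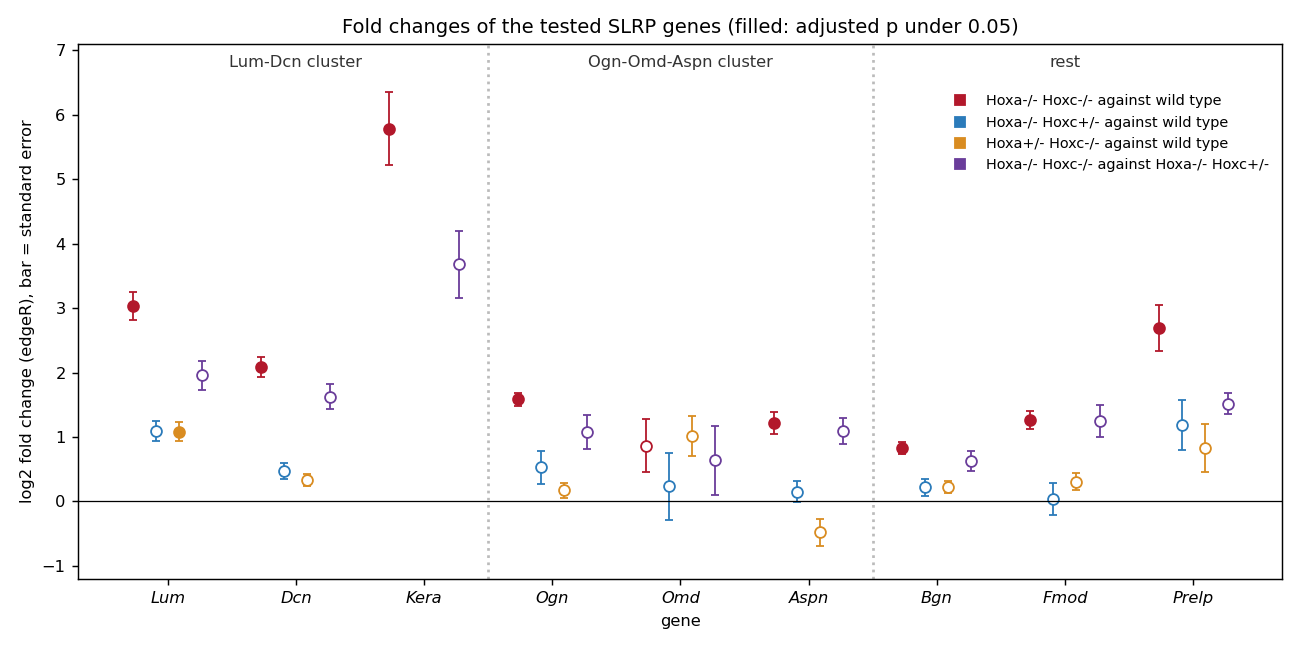
Fitted log2 fold changes by edgeR (vertical axis) of the 9 testable SLRP genes in 4 comparisons (colours), with standard errors as bars and filled points for an adjusted p under 0.05. Against wild type, the double mutant values run from 0.83 for Bgn to 5.79 for Kera, and Lum at 1.08 is the filled point among the partial mutants.

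The make-up of the SLRP transcripts shifted toward the chromosome 10 cluster. Summed over the 10 members, the level per kb of exon was 109.7, 113 and 111 in the wild type libraries, 174, 139 and 126 in Hoxa-/- Hoxc+/-, 122, 124 and 146 in Hoxa+/- Hoxc-/-, and 298, 378 and 298 in the double mutant. Both partial mutants lay above the narrow wild type range, and the double mutant, at 2.92 times the wild type mean, lay above all others. The chromosome 10 cluster made up 20.3 ± 2.23% of the sum in wild type, 24.8 ± 3.16% in Hoxa-/- Hoxc+/-, 25.6 ± 1.80% in Hoxa+/- Hoxc-/- and 36.7 ± 4.16% in the double mutant (SD, n = 3 each). In the double mutant its libraries, at 31.9, 39.4 and 38.9%, cleared the 27.8% that was the highest share elsewhere. The share of the chromosome 13 cluster was 33.5 ± 1.63% in wild type and 31.7 ± 3.76% in the double mutant, and its libraries overlapped. It was 27.7 ± 2.18% in Hoxa+/- Hoxc-/-, below wild type in 3 of 3 libraries. The share of Bgn was 40.7 ± 2.07% in wild type and 24.9 ± 1.03% in the double mutant, where its own level was higher. In absolute terms, the summed level per kb in the double mutant was 5.32 times that of wild type for the chromosome 10 cluster, 2.75 times for the chromosome 13 cluster and 1.99 times for Bgn, Fmod and Prelp together. Most of the last sum is Bgn, at 45.2 of 51.4 CPM per kb in wild type. Taken singly, Bgn was at 1.78, Fmod at 2.41 and Prelp at 6.46 times wild type, beside 8.20 for Lum and 4.23 for Dcn. These shares and ratios are descriptions and were not tested.

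**Figure D3:**
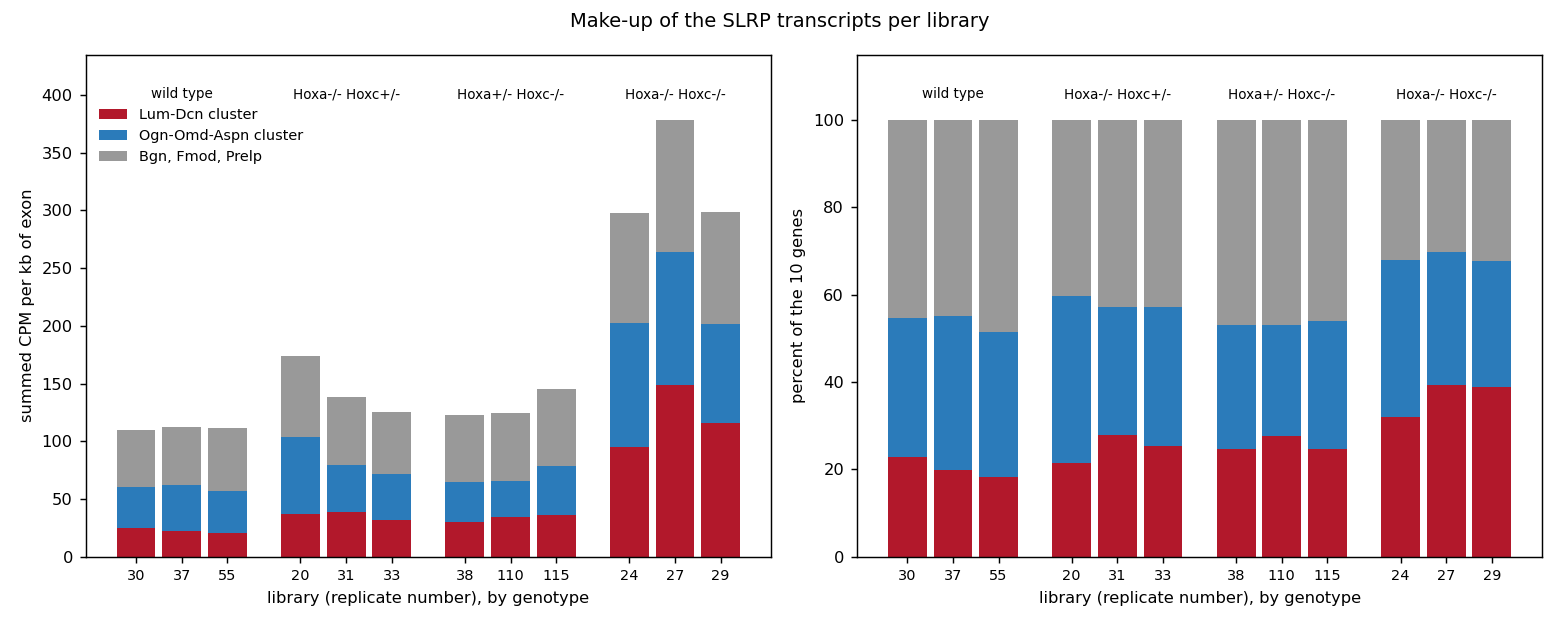
Summed CPM per kb of exon (left) and percent of the 10 genes (right) in each library, with the chromosome 10 cluster in red, the chromosome 13 cluster in blue and Bgn, Fmod and Prelp in grey. The red share is 20.3% on average in wild type and 36.7% in the double mutant.

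Ratios of counts within a library need no scaling between libraries. The ratio of Lum to Ogn counts, which sets a chromosome 10 gene against a chromosome 13 gene, was 0.291, 0.244 and 0.200 in wild type, 0.248, 0.491 and 0.438 in Hoxa-/- Hoxc+/-, 0.438, 0.559 and 0.395 in Hoxa+/- Hoxc-/-, and 0.447, 0.762 and 0.813 in the double mutant. Wild type was lowest apart from library 20, which lay within its range, and the double mutant overlapped both partial mutants. Between the double mutant and wild type the mean log2 ratio differed by 1.43, or 2.69-fold (two-sided exact permutation p = 0.1, the smallest that 3 against 3 libraries allow). The ratio of Dcn to Bgn, which are class I genes on different chromosomes, was 0.400, 0.348 and 0.307 in wild type and 0.755, 0.934 and 0.790 in the double mutant. It lay between 0.373 and 0.458 in the 6 partial mutant libraries, below the double mutant without overlap. Its mean log2 value differed by 1.24 between double mutant and wild type, or 2.35-fold (two-sided exact permutation p = 0.1).

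Inside the chromosome 10 cluster, Lum and Dcn did not keep a constant proportion. The ratio of Lum to Dcn counts was 0.161, 0.156 and 0.138 in wild type, 0.213, 0.246 and 0.249 in Hoxa-/- Hoxc+/-, 0.234, 0.295 and 0.237 in Hoxa+/- Hoxc-/-, and 0.247, 0.291 and 0.346 in the double mutant. All 9 mutant libraries lay above wild type and the 3 mutant groups overlapped, with mean log2 differences from wild type of 0.63, 0.74 and 0.95. The ratio between Lum and its neighbour thus differed from wild type in each mutant genotype, while the summed level of the cluster was 1.59, 1.48 and 5.32 times that of wild type. Inside the chromosome 13 cluster, the log2 ratio of Ogn to Aspn differed from wild type by 0.32 in Hoxa-/- Hoxc+/-, 0.67 in Hoxa+/- Hoxc-/- and 0.37 in the double mutant. Dcn against Ogn differed by 0.48 in the double mutant and by 0.00 and 0.18 in the partial mutants. These 3 ratios were not tested.

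**Figure D4:**
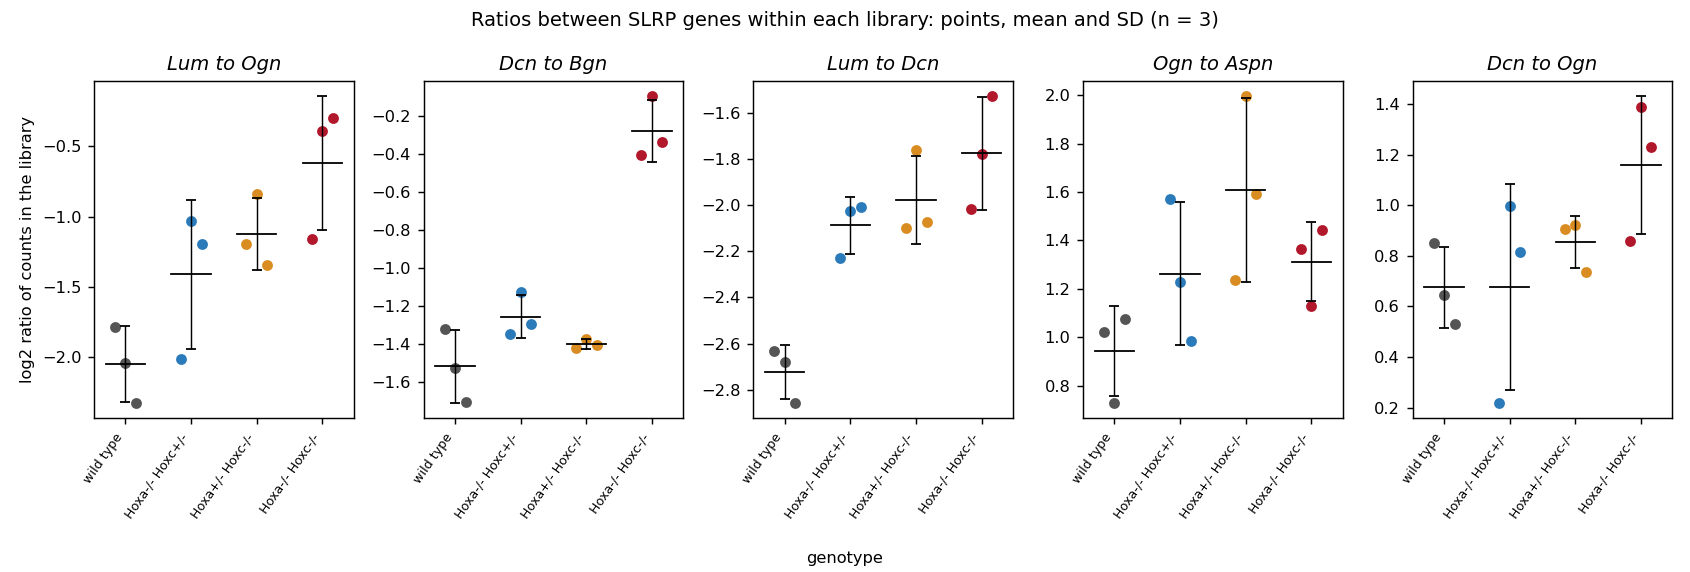
Log2 ratios of counts between pairs of SLRP genes within each library (points), with group means and SD (bars, n = 3). Dcn to Bgn separates the double mutant from the other 9 libraries, while Lum to Dcn separates wild type from the 9 mutant libraries.

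The clusters were also set against their surroundings. The chromosome 10 cluster spans 202 kb, with gaps of 47.3 kb between Dcn and Lum, 34.3 kb between Lum and Kera and 30.4 kb between Kera and Epyc. Of 12 other RefSeq genes within 500 kb of it, 7 are in the count table and 0 had enough counts to be tested by edgeR in the 4 comparisons. They are mostly pseudogenes and noncoding genes, and 1 of them, Gm10754, had any count in the double mutant or wild type libraries (0.0353 ± 0.0306 CPM in the double mutant). The chromosome 13 cluster spans 80.1 kb, with gaps of 14.9 kb between Aspn and Omd and 15.4 kb between Omd and Ogn. Of 32 neighbours within 500 kb, 21 are in the table and 11 were tested. Between double mutant and wild type, Ecm2 and Ninj1 rose and Nol8 fell, where 6.31% of all genes tested rose and 7.40% fell. Ecm2, itself a gene of the wider leucine-rich repeat family, lies 11.7 kb from Aspn and rose from 6.33 ± 0.635 to 9.54 ± 0.592 CPM (log2 fold change 0.59, SE 0.13, adjusted p = 0.0289). Ninj1, a cell adhesion gene 348 kb away, rose by 0.43 (SE 0.11, adjusted p = 0.0412), and Nol8, a nucleolar protein gene 28.6 kb beyond Ogn, fell by 0.46 (SE 0.09, adjusted p = 0.0164). Each of the 3 was beyond the wild type range in 3 of 3 libraries, and with 1 library left out they passed in 1, 2 and 3 of 6 fits. Cenpp, a centromere gene whose span holds Ecm2, Aspn, Omd and Ogn, was at 8.63 ± 2.52 CPM against 10.8 ± 1.94 in wild type (log2 fold change -0.32, adjusted p = 0.381). In the other 3 comparisons, edgeR called 0 of the 11 tested neighbours in either direction.

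**Figure D5:**
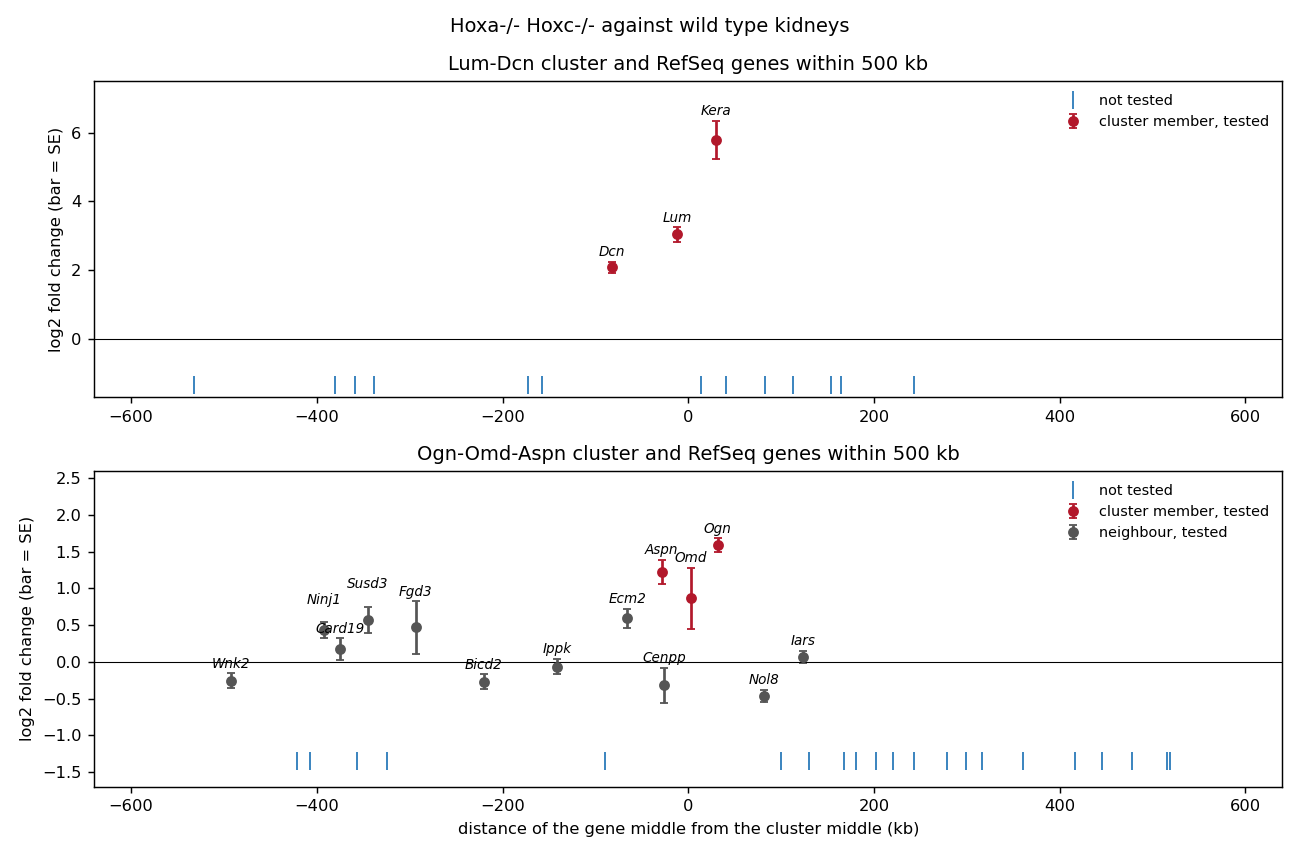
Log2 fold change between double mutant and wild type (points, with SE) against the distance of each gene's middle from the middle of its cluster, in kb, for both clusters. Ticks mark genes that were not tested. Ogn and Aspn stand at 1.59 and 1.22, and Ecm2 beside them at 0.59.

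Genes with the most similar profile were found by the mean absolute difference in log2 CPM over the 12 libraries after centring each gene, among 16259 other genes. Closest to Lum were Mmrn1 (0.210), Prelp (0.282), Fgf7 (0.305), Dcn (0.306) and Prss35 (0.331). Closest to Dcn were Nrk (0.181), Mfap5 (0.191), Postn (0.198), Igf1 (0.207) and Ogn (0.210), and closest to Ogn were Igf1 (0.136), Gbp2 (0.160), Mfap5 (0.173), Akr1c14 (0.175) and Gm4980 (0.176). Prelp on chromosome 1 was nearer to Lum than Dcn was, and Ogn on chromosome 13 was nearer to Dcn than Lum was. Seen from Dcn, Lum ranked 39, Prelp 55, Fmod 58, Aspn 81 and Bgn 178, and seen from Ogn, Dcn ranked 12, Fmod 24, Aspn 44, Bgn 144, Prelp 1480 and Lum 1683. Seen from Lum, Ogn ranked 62, Fmod 112, Bgn 227 and Aspn 247. Kera and Omd, at low counts, ranked far down from each of the 3 genes.

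Genes that act with SLRPs were taken from lists. Of 8 further SLRP family genes, 6 were tested between double mutant and wild type, and 2 rose and 0 fell. Over all genes tested in that comparison, 6.31% rose and 7.40% fell. They were Ecm2, given above, and Tsku, the gene of tsukushi, which rose from 14.9 ± 1.43 to 19.98 ± 1.24 CPM (log2 fold change 0.42, SE 0.11, adjusted p = 0.0445). Tsku was higher in 3 of 3 libraries but passed in 0 of the 6 fits that left out 1 library. Podn was at 5.58 ± 2.27 against 3.91 ± 0.857 CPM in wild type, Chadl at 3.23 ± 0.792 against 4.92 ± 0.320, Chad at 0.288 ± 0.0595 against 0.613 ± 0.280 and Podnl1 at 0.486 ± 0.220 against 0.558 ± 0.288, and none of these passed. Optc and Nyx, best known from the eye, were at or below 0.267 CPM on average in both groups and were not tested. The list had a median log2 fold change of 0.12.

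The enzymes that build the sugar chains were read from 2 lists, beside 6.31% of all genes higher and 7.40% lower. Of 22 genes of chondroitin and dermatan sulfate synthesis, 4 rose and 1 fell, with a median of 0.22. The rises were Chst3, a chondroitin sulfotransferase (log2 fold change 0.65, SE 0.15, adjusted p = 0.0311), Dse, the dermatan sulfate epimerase (0.30, SE 0.08, adjusted p = 0.0411), Chpf2 (0.30, adjusted p = 0.0452) and Fam20b, the xylose kinase (0.29, adjusted p = 0.0461). Xylt1, a xylosyltransferase that starts the chains, fell by 0.74 on the log2 scale (SE 0.18, adjusted p = 0.0340), from 8.11 ± 1.27 to 4.86 ± 0.712 CPM. Each was beyond the wild type range in 3 of 3 libraries, yet with 1 library left out each passed in at most 2 of 6 fits. The gene of highest level per kb in this list, Chsy1, was at 80.0 ± 3.07 against 78.8 ± 10.3 CPM. Of 8 keratan sulfate synthesis genes, 1 rose (Fut8, log2 fold change 0.46, SE 0.10, adjusted p = 0.0294, higher in 3 of 3 libraries and passing in 2 of 6 fits without 1 library) and 0 fell, with a median of 0.16. B4galt1, highest per kb there, was at 139.9 ± 4.85 against 119.7 ± 4.45 CPM.

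The collagen partners rose together with the SLRPs, in a comparison where 6.31% of all genes tested rose. All 10 genes of this list, the fibril collagens of types I, III and V, collagen VI, and Col12a1 and Col14a1, rose in the double mutant, in 3 of 3 libraries each, with a median log2 fold change of 1.34. Their summed level was 5171, 5244 and 4944 CPM in wild type and 13299, 16190.2 and 14398 CPM in the double mutant, a ratio of means of 2.86, beside the 2.92 of the summed SLRP level per kb. The collagens of the list ran from 0.59 for Col12a1 to 1.88 for Col1a1 on the log2 scale. With Kera left out for its filter, Lum, Prelp and Dcn, at 3.04, 2.69 and 2.08, lay above each of them. Bgn lay near the lower end. In Hoxa+/- Hoxc-/- the sum was 7592 ± 1189 CPM and 3 collagens passed, namely Col3a1 (log2 fold change 0.52, adjusted p = 0.0375), Col6a1 (0.46, adjusted p = 0.0475) and Col6a2 (0.45, adjusted p = 0.0476), each higher in 3 of 3 libraries and passing in at most 2 of 6 fits without 1 library. The count of collagens called there was 0 to 7, both under the alternative settings and with 1 library left out. In that comparison 0.836% of all genes tested rose. In Hoxa-/- Hoxc+/- the sum was 6202 ± 811 CPM and 0 passed by edgeR.

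Proteinases and binding partners were read beside the same shares over all genes. Of 11 genes for proteinases of SLRP propeptides and core proteins, 8 were tested, 1 rose and 0 fell. It was Pcolce, which enhances procollagen cleavage and rose from 119.9 ± 9.19 to 226 ± 26.2 CPM (log2 fold change 0.91, SE 0.10, adjusted p = 0.00362, higher in 3 of 3 libraries). Mmp2, highest per kb of the list, was at 206 ± 19.7 against 186 ± 13.6. Of 11 growth factor and receptor partners, 1 rose and 0 fell: Wisp1, a matricellular ligand of decorin and biglycan (log2 fold change 0.33, SE 0.09, adjusted p = 0.0449, higher in 3 of 3 libraries and passing in 2 of 6 fits without 1 library). Kdr, highest per kb, was at 153 ± 4.13 against 130.4 ± 2.83 CPM. Of 9 large chondroitin sulfate and basement membrane proteoglycans, 8 were tested and edgeR called 0 in either direction, with a median log2 fold change of 0.06. Under the 8 alternative settings, DESeq2 among them, that count was 0 in both directions, and with 1 library left out 0 to 1 gene was called lower. Agrn, highest per kb, was at 681 ± 42.7 against 623 ± 62.5 CPM.

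Markers of the cells that kidneys hold, and of tissues that could be carried over in dissection, were read beside these results. Their counts of calls stand beside 6.31% of all genes tested higher and 7.40% lower between double mutant and wild type. Kidney epithelium markers were abundant in all groups, and their sum was 2852 ± 840 CPM in wild type and 3962 ± 899 in the double mutant. The median log2 fold change of the 10 markers was 0.54, and Aqp2, highest per kb, was at 204 ± 39.8 CPM in the double mutant against 218 ± 45.0. Of 5 nephron progenitor markers, 2 fell (Cited1 and Meox1), each in 2 of 6 fits without 1 library, with 0 to 4 genes of the list called lower in those fits and 0 to 2 under the alternative settings, and the sum was 204 ± 38.01 in wild type and 87.8 ± 49.0 in the double mutant. Six2, highest per kb of them, was at 33.2 ± 23.1 CPM against 85.3 ± 18.9.

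Some stromal markers rose as well, in a comparison where 6.31% of all genes tested rose and 7.40% fell. Of 10 renal stroma and fibroblast markers, 5 rose and 0 fell in the double mutant: Tbx18 (log2 fold change 1.64, SE 0.19, adjusted p = 0.00394), Smoc2 (1.30, SE 0.11, adjusted p = 0.00145), Pdgfra (0.81, SE 0.11, adjusted p = 0.00639), Foxd1 and Ntn1, each in 3 of 3 libraries. With 1 library left out Ntn1 passed in 2 of 6 fits and the other 4 in 6, and under the 8 alternative settings Ntn1 passed in 4, Foxd1 in 5 and the other 3 in all. The list had 3 to 7 calls under those settings and 4 to 6 with 1 library left out. The summed level of the list was 874, 997 and 958 CPM in wild type, 1295, 1014 and 962 in Hoxa-/- Hoxc+/-, 1021, 1113 and 1210.2 in Hoxa+/- Hoxc-/-, and 1188, 1379 and 1282 in the double mutant. That is a ratio of 1.36 of summed CPM between double mutant and wild type, and the CPM of Lum had 8.20. The 2.92 of the SLRPs is a ratio of summed CPM per kb, which is an unlike measure. Tcf21, highest per kb of the list, was at 211 ± 22.0 against 219 ± 26.4 CPM. In Hoxa+/- Hoxc-/-, Ntn1 (0.72, adjusted p = 0.0410) and Smoc2 (0.65, adjusted p = 0.0313) rose in 3 of 3 libraries, and each passed in at most 2 of 6 fits without 1 library. Of 6 smooth muscle markers, 4 rose, led by Actg2 (1.49, SE 0.18, adjusted p = 0.00415), and Acta2, highest per kb, was at 537 ± 30.2 against 363 ± 35.1 CPM. That count was 0 to 5 under the alternative settings and 1 to 4 with 1 library left out. The part of cell numbers in the SLRP results was not tested.

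Of the tissues outside the kidney, cartilage, bone and tendon express several SLRPs. Cartilage markers summed to 81.5 ± 23.1 CPM in wild type and 40.5 ± 24.2 in the double mutant, and of 6 tested Comp rose (log2 fold change 2.48, SE 0.31, adjusted p = 0.00469) and Col11a2 fell by 2.87 (SE 0.56, adjusted p = 0.0189), each beyond wild type in 3 of 3 libraries and passing in 6 and 3 of 6 fits without 1 library. Comp passes the low-count filter through the double mutant alone and Col11a2 through wild type alone, where each is high, so these calls are tied to their direction. Col2a1, highest per kb, was at 30.3 ± 19.1 against 64.7 ± 18.3 CPM. Of the bone markers, 3 were tested and edgeR called 0, Ibsp was at 0 in all 12 libraries, and Alpl, highest per kb and also made by kidney tubules, was at 76.8 ± 24.1 against 49.8 ± 16.4. Of the 4 tendon markers Scx, the highest per kb, fell from 11.9 ± 3.00 to 5.02 ± 1.92 CPM (log2 fold change -1.25, adjusted p = 0.0319, below wild type in 3 of 3 libraries, passing in 2 of 6 fits without 1 library), and Tnmd was at or below 0.168 CPM on average in both groups.

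Markers of 6 further tissues were read in the same way. Skeletal muscle markers summed to 5.41 ± 2.86 CPM in wild type and 11.97 ± 4.67 in the double mutant, with Myog (log2 fold change 3.05, adjusted p = 0.0214) and Myh3 (2.41, adjusted p = 0.0194) called higher and Mylpf, highest per kb, at 2.37 ± 0.774 against 1.31 ± 0.205. Mesothelium markers summed to 236 ± 32.8 and 233 ± 11.8 CPM, with Lrrn4 (2.95, adjusted p = 0.0172) and Upk3b (1.61, adjusted p = 0.0249) higher and Wt1, highest per kb and also a podocyte gene, at 143 ± 30.4 against 177 ± 25.3. Liver markers summed to 4.28 ± 2.15 CPM in wild type and 17.4 ± 8.33 in the double mutant, and Alb (3.40, adjusted p = 0.0119), the highest per kb, and Ahsg (3.04, adjusted p = 0.0172) rose. The liver sum was also 23.8 ± 17.1 in Hoxa-/- Hoxc+/- and 20.01 ± 16.7 in Hoxa+/- Hoxc-/-, where Lum was at 31.5 and 30.9 CPM against 121 in the double mutant. Schwann cell markers summed to 24.3 ± 3.14 and 27.2 ± 1.64 CPM, with Foxd3 (2.64, adjusted p = 0.0255) and Sox10 (1.66, adjusted p = 0.0263) higher and Mbp, highest per kb, at 21.9 ± 0.598 against 21.6 ± 3.04. All genes named here as higher were above wild type in 3 of 3 libraries, but with 1 library left out Foxd3 and Sox10 passed in 2 of 6 fits, Myog and Ahsg in 3 and Myh3, Lrrn4, Upk3b and Alb in 4. Under the alternative settings the muscle, mesothelium and liver lists had 0 to 3 calls each and the Schwann cell list 2 to 3. Myog, Foxd3 and Ahsg, with at most 6, 9 and 18 counts in a wild type library, pass the low-count filter through the double mutant where they are high, and their calls are tied to that direction. Of 6 adipose markers 2 were tested and edgeR called 0, with Fabp4, also an endothelial gene, at 264 ± 12.1 against 284 ± 24.8 CPM. Of 6 adrenal and gonad markers 3 were tested and edgeR called 0, with Star at 3.40 ± 0.779 against 3.77 ± 0.677. Over the alternative settings, 0 to 1 adipose, 0 to 2 adrenal or gonad and 0 to 1 bone genes were called. The part of carried-over tissue in the SLRP results was not tested.

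Of the mutated Hox genes themselves, Hoxc10 fell by 0.78 on the log2 scale (SE 0.14, adjusted p = 0.0127) and Hoxa10 by 0.49 (SE 0.11, adjusted p = 0.0270) in the double mutant, each below wild type in 3 of 3 libraries and passing in 5 and 2 of 6 fits without 1 library. The other 4 of the 6 did not pass, where 7.40% of all genes tested fell. Hoxa10, the gene of highest level per kb in this list, was at 105 ± 5.82 against 147 ± 19.99 CPM. Of the 5 genes read for sex, 4 were tested and edgeR called 0 in either direction, against 0 to 1 higher under the alternative settings. With 1 library left out, 0 to 1 was called higher and 0 to 4 lower, the latter without double mutant 24, the Xist-low library of its group.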

How the data were processed

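RNA of whole kidneys was sequenced in 12 libraries. The authors aligned reads to mm10 and deposited 2 tables for 36186 genes: expected counts per gene, which are not whole (19.5% of nonzero values are, to within 0.0001), and normalized values on the log2 scale. Expected counts were rounded, filtered with filterByExpr, scaled by TMM and compared by edgeR 4.0.16 (R 4.3.3) with its quasi-likelihood test on the 6 libraries of a comparison. The labels number each library but do not say that each came from a separate animal, so p-values measure the spread between these libraries. The Benjamini-Hochberg adjustment ran over all genes tested, at 0.05. CPM use TMM over all 12 libraries, and levels per kb use GENCODE release 21 exon lengths. Positions and promoters are from RefSeq on GRCm38. Single values were compared by exact permutation over libraries, with 0.5 counts added in ratios.

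Counting intervals (95%) and floors (3 counts over a group) cover counting error only. The members and lists were chosen with earlier results of these data known. The lists are other SLRP family genes, chondroitin and dermatan sulfate synthesis, keratan sulfate synthesis, proteinases, collagen partners, growth factor and receptor partners, large proteoglycans, the mutated Hox genes, genes for sex, and markers of kidney epithelium, nephron progenitors, stroma, smooth muscle, cartilage, bone, tendon, skeletal muscle, adipose tissue, mesothelium, adrenal and gonad, liver and Schwann cells. Named are all 10 members, all other SLRP family genes, the most abundant gene of each other list (per kb), its called genes of largest rise and fall (up to 3 each), markers needed to state a level, neighbours within 500 kb of a cluster, of which those called or overlapping a cluster are printed, and the 5 genes most like each of Lum, Dcn and Ogn. Fam20b, Foxd1 and Ntn1 fall outside this rule and were added with their values known.

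As alternatives, RLE factors or library sizes replaced TMM, DESeq2 1.42.0 or limma 3.58.1 (on the deposited log2 values) replaced edgeR, every gene with a count was kept, the fit took all 12 libraries or the 9 of run1008, Xist entered the fit of all 12 as a covariate, and each library was left out once. The edgeR steps were tested on simulated data. Python 3.11.15 and matplotlib 3.10.9 made the figures.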

Additional observations from a re-analysis of the deposited data

How the results depend on the processing

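Between double mutant and wild type, each of the 9 tested members kept its side of the threshold and its direction under the 8 alternatives and with each of the 6 libraries left out. Lum lay between 2.84 and 3.05 on the log2 scale under the alternatives, Ogn between 1.52 and 1.82 and Bgn between 0.77 and 0.90. Where a setting tested Epyc it was called higher, for 9 members in place of 8, but Epyc and Kera reach the test through the double mutant alone, and their calls add no support. The number of genes called moved from 2171 to 3303 by DESeq2, 1190 with all 12 libraries in the fit, 996 when Xist was added to that fit as a covariate and 690 with the 9 libraries of 1 run, and from 535 to 3386 with 1 library left out. The cause was not tested.

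Between Hoxa-/- Hoxc+/- and wild type, 0 genes became 18, with 1 member, by DESeq2, 2 with all 12 libraries, and 0 to 8 with 1 library left out. Fmod, at 0.04, turned to -0.057 under library size only and ranged from -0.22 to 0.23 with 1 library left out, and Omd ranged from -0.34 to 0.56. Between Hoxa+/- Hoxc-/- and wild type, 376 genes became 1280, with 2 members, by DESeq2, 149 with all 12 libraries, 134 when Xist was added to that fit, and 60 to 549 with 1 library left out, where 0 to 1 member was called. Between double mutant and Hoxa-/- Hoxc+/-, 0 genes became 487 by DESeq2, with 9 members, 1 with all genes that had a count, 540 with all 12 libraries, with 8 members, 640 when Xist was added to that fit, with 8 members, 181 with the 9 libraries of 1 run, with 5 members, and 0 to 687 with 1 library left out, with 0 to 9 members. These member counts include Kera, and the counts of 9 also Epyc. The cause of these shifts was not tested.

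The log2 differences of 1.43 for Lum to Ogn and 1.24 for Dcn to Bgn ranged from 1.27 to 1.70 and from 1.14 to 1.33 with 1 library left out. Of the lists, the collagen partners kept 9 to 10 calls under the alternatives, while the calls among sugar chain enzymes ranged from 0 to 7 for chondroitin and dermatan sulfate and 0 to 2 for keratan sulfate. Kera, Epyc and Omd had at most 67 counts in any library.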
